A study of Mus musculus with 12 samples.

Results

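The response of the normal mouse heart to a sudden rise in pressure was measured in wild-type (WT) hearts 9 h after transverse aortic constriction (TAC), set against WT hearts 9 h after sham surgery. These 6 hearts, 3 in each group, were taken by their labels for genotype and treatment from a series of 12 hearts in 4 groups. All mice were C57BL/6 males operated on at 8 to 10 weeks of age under pentobarbital. In TAC the transverse aorta was tied against a needle between the innominate and left common carotid arteries, and sham mice had the operation without the constriction. WT sham mice carry the numbers 1, 2 and 3 and WT TAC mice the numbers 7, 9 and 10. The other 6 hearts came from Bcl-xL S14A KI mutant mice after sham surgery or TAC, and they entered the filter on low values and the estimate of the spread between mice. RNA was taken from the heart as labelled, with cells of all kinds together, so fewer cells of a type and less RNA per cell cannot be told apart in any value given here.

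Constriction of the aorta raises the load against which the left ventricle ejects, and within hours cardiomyocytes change transcription through stretch sensors at the Z-disc, neurohumoral receptors and calcium signals. Over days to weeks the ventricle thickens, the matrix between the cells is remodelled, and the heart returns in part to a fetal pattern of sarcomere, metabolic and peptide hormone genes. Early transcripts of this response precede measurable growth.

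The table held 13552 genes as RPKM, a read density that is corrected for exon length and for the reads on genes in each library, and 11240 genes reached 1 RPKM in at least 3 of the 12 mice and were tested. Depth recovered from the step between low values was 23650208 to 32130736 reads on genes in WT sham hearts and 25715294 to 29608548 in WT TAC hearts. All 12 ventricular cardiomyocyte markers were measured, and their summed level was 18980 RPKM or more in each sham heart. Of the atrial markers, Sln, Myl7, Myl4 and Bmp10 are not in the table used. Among the WT hearts, sham mouse 1 and TAC mice 9 and 10 stood apart. Sham mouse 1 had 6.36% of its reads on mitochondrial genes against 9.76% to 11.9% in the other WT hearts. TAC mouse 10 lay closer to the sham hearts than the other TAC hearts on the first principal component, at 15.3 against 30.1 and 33.95 for mice 7 and 9, with the sham hearts between -29.2 and -24.8. This component held 55.2% of the variance of the 6 WT hearts and the second component, which set mouse 10 at 31.7 and mouse 9 at -23.6, held 22.1%. Results that turn on these mice are given with and without them. Each sample is a separate mouse, and p-values measure the spread between these mice.

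Of the 11240 genes tested, 782 were higher and 517 were lower after TAC at an adjusted p under 0.05 from limma with Benjamini-Hochberg adjustment. These are 6.96% and 4.60% of the genes, or 11.6% in either direction, and they are the background for every gene list below. The median log2 change was 0.87 among the genes that rose and -0.88 among those that fell. Large rises outnumbered large falls, with 56 genes up by 2 or more on the log2 scale and 5 genes down by as much. In 1279 of the 1299 genes past the threshold the 3 sham and 3 TAC hearts did not overlap, against 35.1% of all genes tested. The split between directions depended on scaling, with 750 genes higher and 719 lower after median-ratio scaling and 751 and 809 after quantile normalization. The counts were 815 and 710 without TAC mouse 10, and without sham mouse 1 they were 576 and 287. They were 391 and 255 without sham mouse 2, 407 and 270 without sham mouse 3, 393 and 203 without TAC mouse 7, and 673 and 291 without TAC mouse 9. Among the 337 genes above 100 RPKM, 28 rose and 34 fell, and their median log2 change was -0.32 against 0.04 for all genes tested. Of these 337, 24 rose and 18 fell without sham mouse 1, 16 and 18 without sham mouse 2, 17 and 17 without sham mouse 3, 15 and 14 without TAC mouse 7, and 22 and 23 without TAC mouse 9. Their median stayed below 0 in all 13 alternatives. At an unadjusted p under 0.05, 15.6% of all genes were higher and 12.3% lower. Of the 782 genes higher, 147 were under 1 RPKM in every WT sham heart, and so entered the test through other hearts, which favours a call in this direction. In the lists below these were 7 of the 13 higher matrix proteases and inhibitors, 4 of 8 chemokines and cytokines, 4 of 8 ATF4 targets, 3 of 15 matricellular proteins, 4 of 26 solute carriers, 2 of 24 nucleolar genes and at most 2 in every other list. No such count is support for a list. All changes are on the log2(RPKM + 1) scale, which understates the change of genes at low levels.

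**Figure D1:**
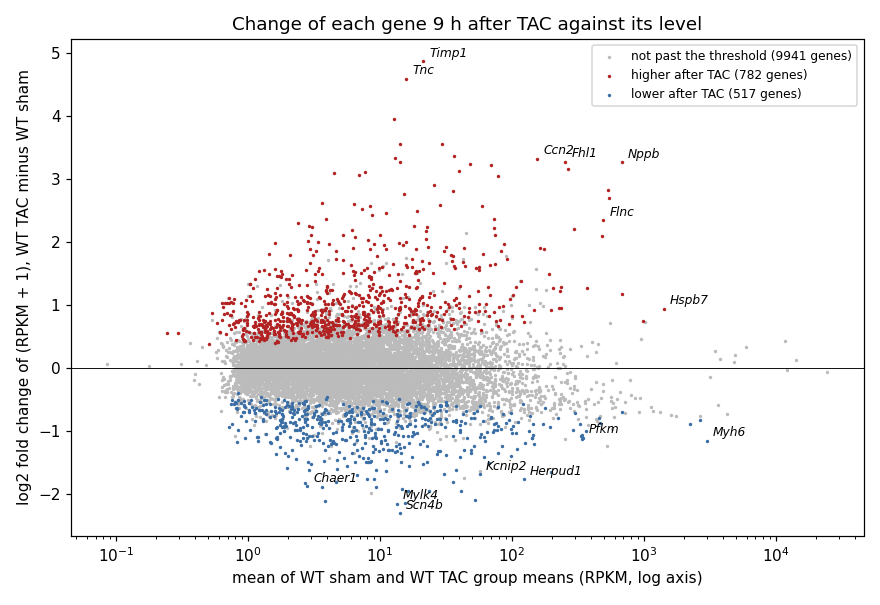
Log2 fold change of (RPKM + 1) between WT TAC and WT sham hearts (vertical axis) against the mean level of the gene in RPKM (log axis), 1 point for each of the 11240 genes tested. Red points are the 782 genes past the threshold that rose and blue points the 517 that fell, and 14 genes are labelled. The rises reach 4.86 (Timp1) and the falls -2.30 (Scn4b).

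Below, values of a gene are given in the order of sham mice 1, 2 and 3 and TAC mice 7, 9 and 10. The log2 change is the TAC mean minus the sham mean of log2(RPKM + 1), and SE is its standard error. The 226 genes past the threshold that the naming rule selected were refitted under up to 13 alternatives, and 124 passed in each alternative in which they were tested. For 40 of the 226 these were 12, because they did not reach the minimum of 5 RPKM. For a named gene of these 226 that missed the threshold in any alternative, the highest adjusted p over them is given in the form "up to". The markers Cd68, Cspg4, Cnn1 and Abcc9 and the genes Myh7, Dhx32 and Gm31251 are not among the 226. For them the alternatives are not given, and a missing "up to" says nothing.

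The largest increase was that of Timp1, the secreted inhibitor of matrix metalloproteinases. It was at 0.666, 0.333 and 0.369 RPKM in the sham hearts and at 52.7, 33.1 and 39.7 RPKM in the TAC hearts. The log2 change was 4.86 (SE 0.22, adjusted p = 4.70e-08), and no other gene in the table had so small a p. Tnc, the matrix glycoprotein tenascin C of injured and developing tissue, went from 0.180, 0.185 and 0.147 RPKM to 38.1, 11.4 and 44.9 RPKM (log2 change 4.58, SE 0.45, adjusted p = 5.70e-05). Ankrd2, a stretch-responsive ankyrin repeat protein of striated muscle, went from 0.520, 0.372 and 0.108 RPKM to 44.4, 25.9 and 5.89 RPKM (log2 change 3.94, SE 0.49, adjusted p = 0.000341). All 3 were under 1 RPKM in every sham heart, and TAC mouse 9 was lowest for Tnc and TAC mouse 10 for Ankrd2.

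The other 12 genes among the 15 largest increases had log2 changes between 3.12 and 3.56. They were Serpina3n, an acute-phase protease inhibitor, Thbs1, the matricellular protein thrombospondin, Fstl3, a secreted antagonist of activins, Lox, which crosslinks collagen, and Ccn2, formerly connective tissue growth factor. They also included Fhl1, a LIM protein of the sarcomere's stretch sensor, Aldh1a2, which makes retinoic acid, Uck2, a pyrimidine salvage kinase, Xirp2, an actin-binding protein of the intercalated disc, Fgl2, a prothrombinase of the fibrinogen family, and the natriuretic peptide genes Nppb and Nppa. Nppb was at 292, 55.1 and 115 RPKM in the sham hearts and at 1345, 1387 and 900.3 RPKM in the TAC hearts (log2 change 3.26, SE 0.48, adjusted p = 0.00110). Fhl1 was at 42.2, 50.6 and 41.3 RPKM in sham and 605, 508 and 276 RPKM in TAC hearts (log2 change 3.27, SE 0.28, adjusted p = 4.95e-05). Uck2 was at 8.36, 7.00 and 7.82 RPKM in sham and 97.2, 123 and 43.7 RPKM in TAC hearts (log2 change 3.23, SE 0.31, adjusted p = 5.70e-05). Each of these 15 genes, which were chosen among genes without overlap between the groups, passed the threshold in all 13 alternatives.

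The largest decreases were smaller than the largest increases. Scn4b, an auxiliary subunit of the cardiac sodium channel, was at 27.2, 19.0 and 25.4 RPKM in the sham hearts and at 4.68, 2 and 6.32 RPKM in the TAC hearts (log2 change -2.30, SE 0.30, adjusted p = 0.000429). Mylk4, a kinase of the myosin light chain kinase family, was at 13.6, 27.2 and 26.9 RPKM in sham and 2.98, 4.08 and 5.53 RPKM in TAC hearts (log2 change -2.15, SE 0.44, adjusted p = 0.00749). These decreases were chosen without overlap between the groups as well. Ces1d, a carboxylesterase of lipid metabolism, fell by 1.95 on the log2 scale (adjusted p = 0.00149), and Myh7b, a slow-type myosin heavy chain gene with an intronic microRNA, fell by 1.88 (adjusted p = 0.00264). Kcnv2, a silent subunit of voltage-gated potassium channels, fell by 1.82 (adjusted p = 0.00110) and Kcnip2, the subunit that sets the transient outward current, fell by 1.68 (adjusted p = 0.0161, up to 0.0807).

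Other large decreases were those of Inmt, an indole methyltransferase (log2 change -2.11, adjusted p up to 0.0759), Snai3 of the Snail repressors (-1.88), and Chaer1, a cardiac long non-coding RNA (-1.87). Asb10, a SOCS box protein of striated muscle, and Shld1 of the shieldin complex of DNA repair each had a log2 change of -1.80 (adjusted p of Shld1 up to 0.0545). Herpud1, a protein of endoplasmic reticulum quality control, fell by 1.76 on the log2 scale (adjusted p = 0.0149, up to 0.0622). Among the smaller of these decreases were Tmem82 (-1.69) and Dhrs7c, a dehydrogenase of the sarcoplasmic reticulum (-1.68). Herpud1 was the most abundant of these genes in sham hearts, at 143, 230 and 197 RPKM in sham and 55.8, 36.4 and 79.5 RPKM in TAC hearts.

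**Figure D2:**
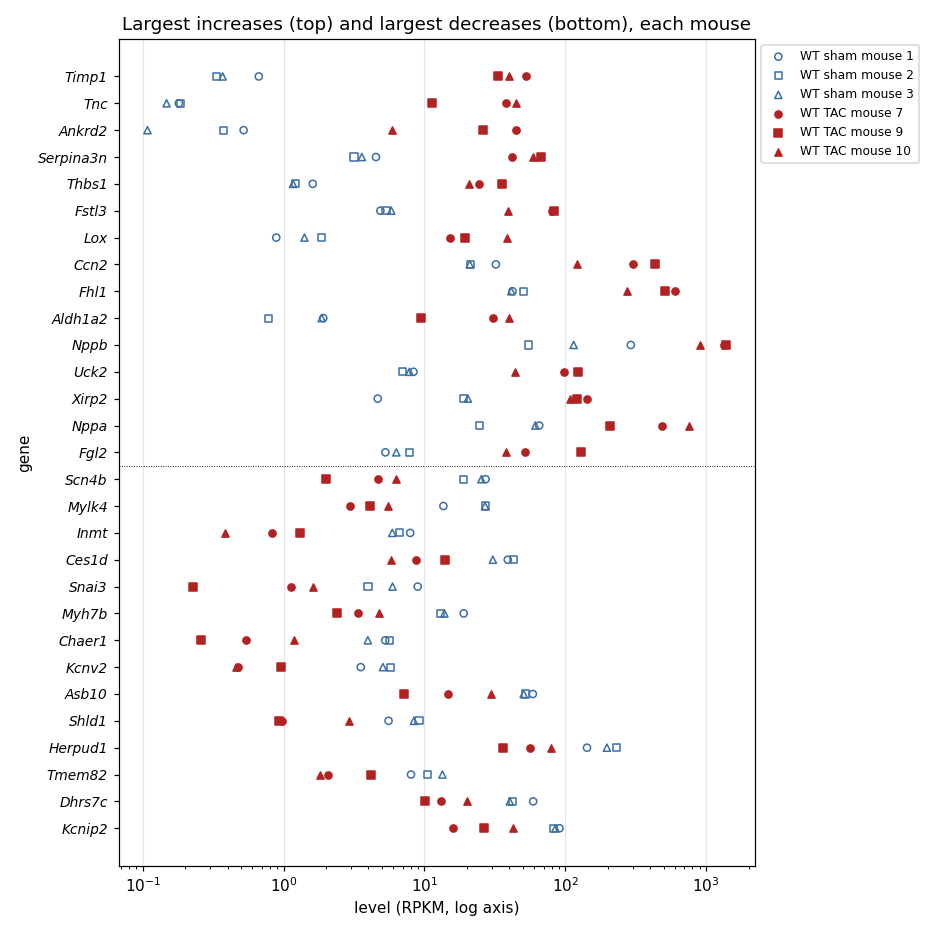
Level in RPKM (log axis) of the 15 largest increases (above the dotted line) and of the largest decreases (below it) in each of the 6 WT hearts. Open blue symbols are the sham mice and filled red symbols the TAC mice, with 1 symbol shape for each mouse of a group. For Ankrd2 the TAC hearts spread from 5.89 to 44.4 RPKM, while for Timp1 they lie between 33.1 and 52.7 RPKM.

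Promoter sequence from RefSeq (GRCm38.p6) was matched by symbol to 8691 of the genes tested, in 11174 windows of 250 bases before to 50 bases after a transcript start. Both strands were searched. The 15 largest increases and decreases were searched in the 250 bases before the start, for motifs other than the TATA box, and few held one. Here 4 stretches are shown as examples of a motif of stress or metabolic regulation before the start of such a gene. Fgl2 (AP-1) and Shld1 (the motif of estrogen-related receptors) also held one and are not shown. Capitals mark the motif. Xirp2 (chr2:67445852-67446001, plus strand) holds TGACTCA, a match to the AP-1 motif TGANTCA bound by Fos and Jun proteins. Fhl1 (chrX:56779533-56779682, plus strand, before a start inside the annotated gene) holds a match to the SRE, the CArG box of serum response factor. Mylk4 (chr13:32783965-32784114, minus strand) and Myh7b (chr2:155611093-155611211, plus strand) hold TGACCTT, the reverse complement of AAGGTCA, the motif of estrogen-related receptors. Myh7b also holds the E-box CACGTG.
Xirp2: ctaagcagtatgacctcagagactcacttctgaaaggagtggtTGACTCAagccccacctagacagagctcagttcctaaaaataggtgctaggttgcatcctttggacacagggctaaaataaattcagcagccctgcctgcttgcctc
Fhl1: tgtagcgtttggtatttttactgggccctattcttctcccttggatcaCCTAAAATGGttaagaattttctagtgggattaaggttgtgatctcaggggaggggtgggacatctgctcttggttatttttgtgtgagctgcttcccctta
Mylk4: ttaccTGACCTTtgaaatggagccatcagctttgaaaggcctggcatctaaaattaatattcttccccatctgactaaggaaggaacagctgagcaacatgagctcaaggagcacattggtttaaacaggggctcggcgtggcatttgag
Myh7b: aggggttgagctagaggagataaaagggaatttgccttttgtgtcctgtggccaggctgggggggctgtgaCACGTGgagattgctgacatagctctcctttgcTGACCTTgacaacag
Over the full windows, AP-1 motifs were in 7.30% of those of genes that rose, 5.52% of those of genes that fell and 4.98% of all. The motif of estrogen-related receptors was in 2.66%, 4.93% and 3.15% of these windows, and the TATA box TATAAA in 9.69%, 5.52% and 7.19%. The SRE was in 1.59%, 1.78% and 1.36%, the E-box in 10.1%, 9.47% and 10.2%, and the kB motif of NF-kB in 5.18%, 5.92% and 5.28%. A match is a run of letters and was not tested as a binding site.

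Among genes past the threshold, those with the largest rise in mean RPKM included sarcomere and Z-disc genes. Hspb7, a small heat shock protein that binds filamin, was already among the most abundant RNAs at 974, 985 and 950.4 RPKM in sham hearts, and it reached 1900, 1966 and 1721 RPKM in TAC hearts (log2 change 0.94, SE 0.19, adjusted p = 0.00626). Acta1, the skeletal actin of the fetal heart, was at 160, 115 and 116 RPKM in sham and 1525, 411 and 947 RPKM in TAC hearts (log2 change 2.70, SE 0.52, adjusted p = 0.00505). Ankrd1, the cardiac ankyrin repeat protein, was at 185, 77.2 and 156 RPKM in sham and 961, 914 and 924 RPKM in TAC hearts (log2 change 2.83, SE 0.34, adjusted p = 0.000316). Ankrd1 was nearly equal in the 3 TAC hearts, while Acta1 spread widely among them. Flnc, filamin C of the Z-disc, rose by 2.34, Hspb1, another small heat shock protein, by 2.10 (adjusted p up to 0.0505), and Csrp3, the muscle LIM protein, by 1.17 on the log2 scale. Des, the desmin gene, rose by 0.75 (adjusted p = 0.0492, up to 0.163).

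The largest falls in mean RPKM among genes past the threshold were those of Myh6 and Atp2a2. Myh6, the fast adult myosin heavy chain, was at 4836, 4169 and 3341 RPKM in sham and 1392, 2497 and 1761 RPKM in TAC hearts (log2 change -1.15, SE 0.26, adjusted p = 0.0129, up to 0.111). Atp2a2, the calcium pump of the sarcoplasmic reticulum, was at 3950, 3166 and 3050 RPKM in sham and 1986, 1909 and 1808 RPKM in TAC hearts (log2 change -0.83, SE 0.19, adjusted p = 0.0142, up to 0.443). Both missed the threshold without TAC mouse 7 and after quantile normalization, though their groups did not overlap. Pfkm, the muscle phosphofructokinase (log2 change -1.10), and Eno3, the muscle enolase (-1.11), fell in every alternative. Mb, which encodes myoglobin, fell by 0.88 on the log2 scale (adjusted p up to 0.273), Pygm, the muscle glycogen phosphorylase, by 0.87 (up to 0.0573), Ckm, the muscle creatine kinase, by 1.05 (up to 0.0504), and Ogdh, a subunit of the oxoglutarate dehydrogenase complex, by 0.69 (up to 0.117). Gsn, the actin-severing protein gelsolin, fell by 0.99 (up to 0.0828) and Ltbp4, a latent TGF-beta binding protein, by 0.79 (up to 0.108).

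Many proteins of the Z-disc and the stretch sensor rose, with 18 of 34 tested members higher and 0 lower (52.9% higher against 6.96% of all genes), a count that ran from 12 without TAC mouse 7 to 19 without TAC mouse 10. At an unadjusted p under 0.05 1 member was lower, and limma-voom called 0 lower. Their median log2 change was 0.84, and 29 of the 34 lay above 0. Ankrd2, Fhl1, Xirp2, Ankrd1 and Flnc led this list. Cryab, the small heat shock protein alphaB-crystallin and the second most abundant member, was at 930, 730 and 653 RPKM in sham and 1402, 1185 and 1215 RPKM in TAC hearts (log2 change 0.73, adjusted p = 0.109). The sarcomere itself moved in both directions, with 3 of 26 members higher and 4 lower. The 4 were 2 without TAC mouse 7 and 6 without TAC mouse 10, and the 3 were 1 without sham mouse 2, sham mouse 3 or TAC mouse 7. Next to Acta1, Tpm4, a cytoskeletal tropomyosin, rose by 0.91 (adjusted p up to 0.130), while Mylk4, Myh7b and Myh6 fell. Actc1, the cardiac actin and the most abundant member, had a log2 change of 0.42 (adjusted p = 0.359).

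The actin cytoskeleton and focal adhesions followed, with 21 of 44 members higher and 1, Gsn, lower. The median log2 change was 0.71 and 41 of 44 lay above 0. Msn, the membrane-actin linker moesin, was at 29.4, 23.6 and 25.5 RPKM in sham and 110.3, 94.0 and 80.9 RPKM in TAC hearts (log2 change 1.82, SE 0.21, adjusted p = 0.000241). Actn1, the non-muscle alpha-actinin, was at 6.17, 7.65 and 8.63 RPKM in sham and 22.6, 25.2 and 25.8 RPKM in TAC hearts (log2 change 1.60, SE 0.20, adjusted p = 0.000377). Each TAC heart was well above each sham heart for both. Capg, an actin capping protein, rose by 1.51, Actb, the cytoplasmic actin, by 1.27 (adjusted p up to 0.0625) and Nes, the intermediate filament protein nestin, by 1.28 (up to 0.107). The count of 21 was 10 without TAC mouse 7, 11 without sham mouse 2 and 12 without sham mouse 3.

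Among microtubule genes, some tubulin isotypes rose. Tubb2a was at 15.2, 16.8 and 16.2 RPKM in sham and 54.7, 49.8 and 59.1 RPKM in TAC hearts (log2 change 1.70, SE 0.18, adjusted p = 0.000129). Tubb6 was at 36.4, 36.7 and 32.1 RPKM in sham and 152, 118 and 123 RPKM in TAC hearts (log2 change 1.86, SE 0.27, adjusted p = 0.00101). The 2 most abundant tubulins of the sham heart, Tuba4a and Tuba8, had log2 changes of -0.12 and -0.14 (adjusted p = 0.824 and 0.739). In all, 9 of 30 tubulin and microtubule genes were higher and 0 were lower, with 0 lower at an unadjusted p under 0.05 and in limma-voom. The count of 9 was 6 without sham mouse 3, without TAC mouse 7 or without TAC mouse 10. Tubulin genes are close paralogs, and reads that their copies share could be split between them in the counting.

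At the intercalated disc 2 of 22 genes rose (9.09%, near the 6.96% of all genes) and 0 were lower. At an unadjusted p under 0.05 and in limma-voom 0 were lower as well. The 2 were 0 without TAC mouse 7. Pkp2, the desmosomal plakophilin, rose by 0.83 on the log2 scale (adjusted p up to 0.0502) and Popdc3, a cyclic AMP binding membrane protein, by 0.82 (up to 0.0779). Dsp, the desmosomal plaque protein desmoplakin, had a log2 change of -0.13 (adjusted p = 0.738).

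The matrix response was led by matricellular proteins, which sit in the matrix and signal to cells rather than bear load. Of 27 tested, 15 were higher and 2 lower (55.6% and 7.41% against 6.96% and 4.60% of all genes), with a median log2 change of 1.28, and the count of 15 was 11 without sham mouse 3 or without TAC mouse 7. Ccn2 was at 32.1, 21.2 and 21.0 RPKM in sham and 304, 431 and 121 RPKM in TAC hearts (log2 change 3.32, SE 0.36, adjusted p = 0.000153). Thbs1 was at 1.61, 1.21 and 1.17 RPKM in sham and 24.3, 35.5 and 20.6 RPKM in TAC hearts (log2 change 3.55, SE 0.42, adjusted p = 0.000280). Spp1, which encodes osteopontin, was at 0.0944, 0 and 0.0248 RPKM in sham and 6.73, 4.35 and 16.0 RPKM in TAC hearts (log2 change 3.10, SE 0.30, adjusted p = 5.70e-05). Sparc, the most abundant member in sham hearts, rose by 0.95 (adjusted p = 0.0382, up to 0.136), and Fbln2, the next, had a log2 change of 0.80 (adjusted p = 0.0933).

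The collagens form the fibrils and basement membranes of the matrix. Of 18 collagen genes tested, 5 were higher and 1 lower, and 17 lay above 0 with a median log2 change of 1.01. Col8a1, a short-chain network collagen, was at 1.79, 2.26 and 2.49 RPKM in sham and 12.5, 5.35 and 24.1 RPKM in TAC hearts (log2 change 2.03, SE 0.35, adjusted p = 0.00283). Col1a1, the chief fibrillar collagen, was at 105, 50.6 and 41.2 RPKM in sham and 188, 67.4 and 461 RPKM in TAC hearts (log2 change 1.57, SE 0.55, adjusted p = 0.0818). Col1a1 groups overlapped, since sham mouse 1 lay above TAC mouse 9. Col4a1 rose by 1.29 (adjusted p = 0.0382, up to 0.142), Col4a2 by 1.16 (0.0367, up to 0.138) (groups overlapping) and Col5a2 by 1.53 (0.0186, up to 0.0716), and Col6a6 fell by 0.83 (0.00164). The count of 5 was 1 without sham mouse 2 or sham mouse 3, 2 without TAC mouse 7 and 9 without TAC mouse 9.

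Enzymes that crosslink and process collagen also rose in part. Loxl1, a lysyl oxidase of elastic fibres, was at 91.5, 69.5 and 59.8 RPKM in sham and 338, 226 and 259 RPKM in TAC hearts (log2 change 1.89, SE 0.35, adjusted p = 0.00457). Lox rose from 0.886, 1.86 and 1.41 RPKM to 15.3, 19.5 and 38.7 RPKM (log2 change 3.33, SE 0.32, adjusted p = 5.70e-05), Loxl2 by 1.58 and Loxl4 by 1.15. Of 19 crosslinking and processing genes, 6 were higher and 0 lower, with 0 lower at an unadjusted p under 0.05 and in limma-voom, and the count of 6 was 4 without sham mouse 1, 2 or 3 or TAC mouse 7. Serpinh1, the collagen chaperone and the most abundant of them, had a log2 change of 0.73 (adjusted p = 0.218).

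Among matrix proteases and their inhibitors 13 of 31 were higher and 2 lower, and the count of 13 was 6 without sham mouse 2. Next to Timp1, the aggrecanase-type proteases Adamts8 (log2 change 2.26, adjusted p = 5.70e-05) and Adamts4 (2.24, adjusted p = 0.00566) and the membrane protease Adam8 (1.49, adjusted p = 5.70e-05) rose from low levels. Mmp15, the most abundant member, was at 130, 102 and 117 RPKM in sham and 76.1, 41.7 and 79.0 RPKM in TAC hearts (log2 change -0.87, adjusted p = 0.0339, up to 0.126). Timp2, another inhibitor, had a log2 change of -0.37 (adjusted p = 0.321). Of 18 genes of plasminogen activation and serpins, 7 were higher and 0 lower, with 0 lower at an unadjusted p under 0.05 and in limma-voom. Plaur, the urokinase receptor, rose by 1.66 and Anxa2, a plasminogen-binding annexin, by 1.24.

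Inflammatory signals were followed in several lists. Of 28 genes of the IL-6 receptor family, Stat3 and its acute-phase targets, 10 were higher and 0 lower, and the count stayed at 9 or 10 in every alternative. At an unadjusted p under 0.05 2 members were lower, and limma-voom called 0 lower. Socs3, the feedback inhibitor of this pathway, was at 5.36, 5.13 and 4.32 RPKM in sham and 49.5, 65.4 and 24.8 RPKM in TAC hearts (log2 change 2.90, SE 0.34, adjusted p = 0.000241). Serpina3n was at 4.52, 3.16 and 3.59 RPKM in sham and 41.9, 66.7 and 58.5 RPKM in TAC hearts (log2 change 3.56, SE 0.35, adjusted p = 5.70e-05). Lcn2, the iron-binding lipocalin of the acute phase, rose by 3.12 and Bcl3, a nuclear partner of NF-kB, by 1.96. Pim1 and Pim3, the most abundant members, had log2 changes of 0.43 and -0.71 (adjusted p = 0.669 and 0.167).

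Chemokines and cytokines had 8 of 21 members higher and 2 lower, and the count of 8 was 5 without sham mouse 2 or without TAC mouse 7. Ccl2, which recruits monocytes, was at 0.738, 0.595 and 0.432 RPKM in sham and 19.4, 13.9 and 6.66 RPKM in TAC hearts (log2 change 3.06, SE 0.31, adjusted p = 8.10e-05). Ccl7, a related chemokine, rose by 2.02, Ccl12 by 1.28 and Ccl6 by 1.24 (adjusted p up to 0.0802), and Il15, which sustains lymphocytes, fell by 1.45 (adjusted p = 0.0186, up to 0.0657). Of 23 NF-kB subunits and feedback targets 6 were higher and 0 lower, with 1 lower at an unadjusted p under 0.05 and 0 lower in limma-voom. Sele and Selp, the selectins of activated endothelium, rose by 1.54 and 1.03, while Nfkbia, the classical feedback inhibitor, had a log2 change of -0.51 (adjusted p = 0.227). The count of 6 was 4 without sham mouse 2 or TAC mouse 7 and 3 without sham mouse 3. In the interferon response 2 of 36 were higher and 1 lower (5.56% and 2.78%, below the shares of all genes), and 9 of 36 lay above 0. The number lower was 4 without TAC mouse 10. In antigen presentation 1 of 22 was higher and 0 were lower (1 in each direction at an unadjusted p under 0.05, 1 higher and 0 lower in limma-voom), with a median of -0.29.

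Immediate early genes, the first wave of transcription after a stimulus, were raised in part at 9 h, and no earlier time was measured. Of 33 tested, 8 were higher and 0 lower, with 0 lower at an unadjusted p under 0.05 and in limma-voom, and the median log2 change was 0.68. Junb, an AP-1 subunit, was at 23.6, 11.2 and 10.7 RPKM in sham and 67.7, 64.0 and 31.9 RPKM in TAC hearts (log2 change 1.80, SE 0.35, adjusted p = 0.00525). Myc, the growth transcription factor, was at 2.33, 2.80 and 3.36 RPKM in sham and 15.4, 23.02 and 7.43 RPKM in TAC hearts (log2 change 1.97, SE 0.41, adjusted p = 0.00846). Hbegf, a ligand of the EGF receptor, was at 4.52, 4.03 and 3.74 RPKM in sham and 34.3, 56.5 and 10.7 RPKM in TAC hearts (log2 change 2.50, SE 0.53, adjusted p = 0.00930). In each of these, TAC mouse 10 was the lowest TAC heart, and without it 12 of the 33 were higher. Btg2 and Ier3 rose by 1.67 and 1.59, while Klf2 and Klf9, the most abundant members, had log2 changes of -0.0031 and -0.64 (adjusted p = 0.998 and 0.291).

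Lists of growth signaling were compared next. In TGF-beta and BMP signaling 7 of 42 were higher and 1, Ltbp4, was lower. Fstl3 was at 4.86, 5.33 and 5.81 RPKM in sham and 80.5, 83.7 and 39.1 RPKM in TAC hearts (log2 change 3.37, SE 0.31, adjusted p = 5.70e-05). Tgfb2 was at 1.84, 1.35 and 1.39 RPKM in sham and 13.8, 10.3 and 7.93 RPKM in TAC hearts (log2 change 2.18, SE 0.27, adjusted p = 0.000374). Ltbp2 rose by 2.52, Fstl1 by 1.57 and Gdf15, a stress-induced cytokine, by 2.46 (adjusted p = 0.0370, up to 0.146). Of 28 growth factor genes of the EGF, FGF, IGF and PDGF families 5 were higher and 1 lower. Fgf18 rose by 1.89, Ngfr by 1.15 and Fgf2 by 0.77 (adjusted p up to 0.0694). Ngfr, the low-affinity neurotrophin receptor, was in the list but belongs to none of these families. The count of 5 was 3 without sham mouse 3 or TAC mouse 7 and 8 without TAC mouse 10. Of 39 genes of angiogenesis 2 were higher and 1 lower (5.13% and 2.56%, below the 6.96% and 4.60% of all genes). Vegfa had a log2 change of 0.04 (adjusted p = 0.903).

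Among Wnt and Hippo pathway outputs 4 of 31 were higher and 0 lower, with 0 lower at an unadjusted p under 0.05 and in limma-voom. Frzb, a secreted Wnt antagonist, rose by 1.38 on the log2 scale (adjusted p = 0.00234), and the receptors Fzd2 by 1.22 (0.0237, up to 0.0894) and Fzd1 by 1.13 (0.0299, up to 0.101). The count of 4 was 1 without sham mouse 2 or 3 or TAC mouse 7, 2 without sham mouse 1 and 7 without TAC mouse 10. In beta-adrenergic and cyclic AMP signaling 5 of 37 were higher and 0 lower, with 5 lower at an unadjusted p under 0.05 and 0 lower in limma-voom. Grk5, a kinase that desensitises receptors, was at 5.93, 6.11 and 5.12 RPKM in sham and 13.1, 16.7 and 12.4 RPKM in TAC hearts (log2 change 1.16, SE 0.19, adjusted p = 0.00263). The count of 5 was 1 without sham mouse 3 or TAC mouse 7, 2 without sham mouse 1, and 3 without sham mouse 2 or TAC mouse 10. The number lower was 2 without sham mouse 1 and 1 without TAC mouse 10.

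Genes of the action potential fell in part. Of 45 sodium, potassium and chloride channel genes, 12 were lower and 1 higher (26.7% lower against 4.60% of all genes), and the count of 12 ran from 8 without TAC mouse 7 to 16 without TAC mouse 10. Kcnip2 was at 91.0, 82.7 and 85.2 RPKM in sham and 16.0, 26.5 and 42.4 RPKM in TAC hearts. Kcnv2 was at 3.53, 5.70 and 5.07 RPKM in sham and 0.472, 0.959 and 0.457 RPKM in TAC hearts. Clcn1, the muscle chloride channel, was at 3.99, 3.14 and 2.93 RPKM in sham and 0.974, 0.299 and 0.783 RPKM in TAC hearts (log2 change -1.38, SE 0.18, adjusted p = 0.000377). For Clcn1 every TAC heart lay below every sham heart. Kcna3, a potassium channel known from immune cells, was the 1 channel that rose, by 1.44 (adjusted p = 0.00381). Kcng2 and Kcnk3, the most abundant, had log2 changes of 0.38 and -0.41 (adjusted p = 0.317 and 0.146).

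Of 40 calcium handling genes 3 were higher and 3 lower, 7.5% in each direction, near the 6.96% and 4.60% of all genes. The 3 lower were 1 without TAC mouse 7. Hrc, a calcium-binding protein of the sarcoplasmic reticulum, was at 263, 178 and 182 RPKM in sham and 88.6, 96.3 and 80.5 RPKM in TAC hearts (log2 change -1.20, SE 0.22, adjusted p = 0.00383), and it fell together with Atp2a2. Slc8a1, the sodium-calcium exchanger, was at 12.7, 13.5 and 16.3 RPKM in sham and 24.1, 28.3 and 47.3 RPKM in TAC hearts (log2 change 1.12, SE 0.24, adjusted p = 0.00985). Rcan1, the calcineurin inhibitor whose transcription calcineurin drives, was at 34.3, 16.0 and 20.9 RPKM in sham and 141, 172 and 53.9 RPKM in TAC hearts (log2 change 2.23, SE 0.38, adjusted p = 0.00270). Calm2, a calmodulin gene, rose by 0.79 (adjusted p up to 0.0917). Jph2, which couples the surface membrane to the sarcoplasmic reticulum, had a log2 change of -0.33 (adjusted p = 0.435).

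Genes of energy metabolism were compared branch by branch. Of 81 nuclear-encoded genes of oxidative phosphorylation 0 passed the threshold in limma, yet all 81 had a log2 change below 0 with a median of -0.54, and 48 were lower and 0 higher at an unadjusted p under 0.05, which 12.3% and 15.6% of all genes met. limma-voom called 1 lower, median-ratio scaling 9 and quantile normalization 11, and none of these called any higher. Cox6a2, the heart and muscle form of a cytochrome oxidase subunit, was at 2466, 1663 and 1883 RPKM in sham and 1198, 1297 and 1048 RPKM in TAC hearts (log2 change -0.75, adjusted p = 0.121). The median of the list in sham mouse 1 was 0.37 above the sham mean and in the other sham hearts 0.16 and 0.19 below it, while the TAC hearts lay between -0.61 and -0.51. Transcripts of mitochondrial DNA had a median log2 change of 0.11, which was -0.22 without sham mouse 1, and mt-Co1 had -0.07 (adjusted p = 0.880). The 1 of these 12 genes past the threshold, mt-Co3, was at 49.7, 145 and 14.3 RPKM in sham and 12.2, 7.28 and 16.9 RPKM in TAC hearts (log2 change -1.95, SE 0.58, adjusted p = 0.0436, up to 0.142), and its groups overlapped. Poly(A) selection limits what the level of mitochondrial transcripts shows.

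Fatty acid uptake and oxidation had 7 of 45 genes lower and 2 higher, and the tricarboxylic acid cycle with pyruvate oxidation had 3 of 29 lower and 0 higher. At an unadjusted p under 0.05, which 12.3% of all genes met as lower and 15.6% as higher, the counts were 19 lower and 3 higher in the first list. In the second they were 18 and 0, and limma-voom called 3 lower and 0 higher there. The median log2 changes were -0.48 and -0.43. Acad11 and Acad12, acyl-CoA dehydrogenases, fell by 0.93 and 1.01, and Hadh, an enzyme of beta-oxidation, by 0.91 on the log2 scale (adjusted p up to 0.0505). Angptl4, the inhibitor of lipoprotein lipase, rose from 1.21, 0.824 and 2.09 RPKM to 12.1, 33.0 and 3.32 RPKM (log2 change 2.42, SE 0.52, adjusted p = 0.00935). Pdk2, a kinase that restrains pyruvate dehydrogenase, was at 288, 237 and 244 RPKM in sham and 128, 147 and 128 RPKM in TAC hearts (log2 change -0.92, SE 0.19, adjusted p = 0.00819). Pdp2, the opposing phosphatase, fell by 1.34. The 7 fatty acid genes were 2 without TAC mouse 7, 3 without sham mouse 1 or 2, 4 without sham mouse 3 or TAC mouse 9, 13 after median-ratio scaling and 14 after quantile normalization.

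Catabolism of branched-chain amino acids had 5 of 26 genes lower and 1 higher with a median log2 change of -0.55, and 24 of 26 lay below 0. Klf15, the transcription factor that drives this pathway in muscle, was at 43.5, 66.1 and 65.4 RPKM in sham and 17.0, 30.3 and 18.1 RPKM in TAC hearts (log2 change -1.40, SE 0.36, adjusted p = 0.0217, up to 0.0917). Bckdha, a subunit of the branched-chain ketoacid dehydrogenase, fell by 0.85 (adjusted p = 0.0285, up to 0.0967) and Bckdhb, its partner subunit, by 0.80 (0.0298, up to 0.108). The count of 5 was 0 without sham mouse 2, sham mouse 3 or TAC mouse 7 and 1 without sham mouse 1, and it was 9 after median-ratio scaling and 13 after quantile normalization. Slc7a5, the transporter that brings leucine into cells, rose from 3.97, 4.45 and 3.98 RPKM to 15.8, 15.1 and 8.53 RPKM (log2 change 1.42, SE 0.28, adjusted p = 0.00688).

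In glucose uptake and glycolysis 8 of 32 genes were lower and 3 higher, and isoforms of the same enzyme moved in opposite directions. Slc2a4, the insulin-dependent glucose transporter, was at 174, 148 and 137 RPKM in sham and 53.8, 48.2 and 91.8 RPKM in TAC hearts (log2 change -1.28, SE 0.26, adjusted p = 0.00753). Pfkm was at 589, 404 and 421 RPKM in sham and 199.7, 201 and 249.9 RPKM in TAC hearts (log2 change -1.10, SE 0.23, adjusted p = 0.00771). Pfkp, the platelet-type phosphofructokinase, was at 5.18, 3.42 and 3.32 RPKM in sham and 10.7, 15.6 and 11.2 RPKM in TAC hearts (log2 change 1.45, SE 0.23, adjusted p = 0.00164). Slc16a3, a lactate exporter, rose by 1.41 and Phkg1, the catalytic subunit of muscle phosphorylase kinase, fell by 1.13. The count of 8 was 4 without TAC mouse 7 and 5 without any 1 of the sham mice.

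Regulators of mitochondrial and fat metabolism had 5 of 26 genes lower and 1 higher. Perm1, a muscle coregulator downstream of PGC-1, was at 151, 133 and 148 RPKM in sham and 64.0, 59.3 and 92.3 RPKM in TAC hearts (log2 change -1.02, SE 0.21, adjusted p = 0.00775). Rxrg, a retinoid X receptor, fell by 1.16 (adjusted p up to 0.0868) and Pprc1, a PGC-1 family coactivator of growth, rose by 0.95 (up to 0.0927). Esrra, an estrogen-related receptor, had a log2 change of -0.50 (adjusted p = 0.179). The count of 5 was 1 without TAC mouse 7, 2 without sham mouse 3 or TAC mouse 9 and 3 without sham mouse 2. Xenobiotic and drug metabolism had 10 of 45 genes lower, Inmt and Ces1d at the head, and 3 higher, with Aldh1a2 at 1.91, 0.784 and 1.86 RPKM in sham and 30.6, 9.43 and 39.8 RPKM in TAC hearts. The count of 10 was 3 without any 1 of the sham mice or TAC mouse 7 and 6 without TAC mouse 9.

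Genes of muscle protein breakdown and FoxO signaling fell in part, with 7 of 27 lower and 1 higher. Asb14, a SOCS box protein of striated muscle, was at 34.4, 31.3 and 29.0 RPKM in sham and 9.98, 8.32 and 13.2 RPKM in TAC hearts (log2 change -1.52, SE 0.25, adjusted p = 0.00262). Klhl41, a Kelch protein of the sarcomere, rose by 1.69 (adjusted p up to 0.0557). Asb2, the most abundant, fell by 1.07 (adjusted p = 0.0428, up to 0.150). The count of 7 was 1 without sham mouse 2, 2 without sham mouse 3, 3 without sham mouse 1, TAC mouse 7 or TAC mouse 9, and 4 without TAC mouse 10 and after quantile normalization. In the muscle lineage transcription factors 2 of 24 were lower and 0 higher (3 higher and 4 lower at an unadjusted p under 0.05, 0 and 2 in limma-voom). Hopx, a homeodomain cofactor, fell by 0.98 (adjusted p up to 0.103), while Nkx2-5, a core cardiac factor, had a log2 change of 0.31 (adjusted p = 0.511).

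**Figure D3:**
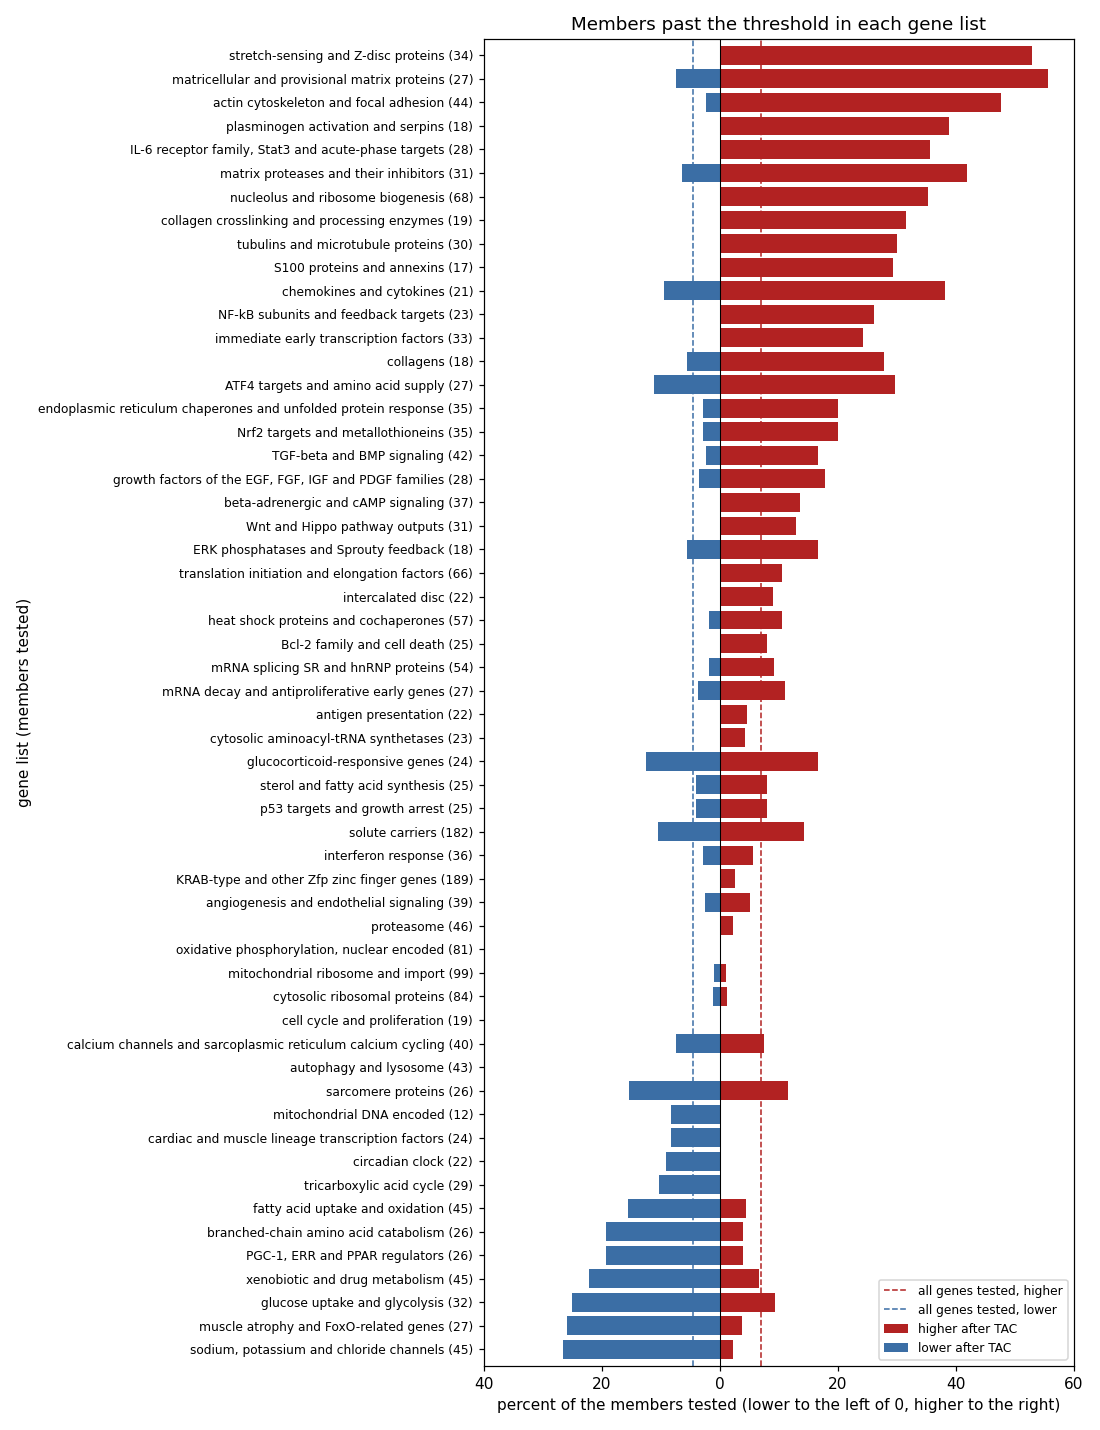
Percent of the tested members of each of the 56 gene lists past the threshold (horizontal axis), with those higher after TAC to the right in red and those lower to the left in blue. The number of members tested is in parentheses, and dashed lines mark the percentages over all genes tested, 6.96% higher and 4.60% lower. The longest bars to the right are matricellular proteins (55.6%) and Z-disc proteins (52.9%), and the longest to the left is that of ion channels (26.7%).

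Genes that assemble ribosomes rose in number. Of 68 nucleolar and ribosome biogenesis genes 24 were higher and 0 lower (35.3% against 6.96% of all genes), 63 lay above 0 against 53.5% of all genes, and 43 were higher and 0 lower at an unadjusted p under 0.05, which 15.6% and 12.3% of all genes met, with 21 higher and 0 lower in limma-voom. Rrp12, a processing factor of pre-ribosomes, was at 9.19, 7.53 and 9.57 RPKM in sham and 32.9, 35.2 and 17.4 RPKM in TAC hearts (log2 change 1.54, SE 0.23, adjusted p = 0.00116). Ddx21, a nucleolar helicase, rose by 1.039 and Npm1, nucleophosmin, by 0.90. The changes were moderate, between 0.40 and 1.54 among the 24. Their number was 8 without sham mouse 2, 9 without TAC mouse 7, 10 without sham mouse 3, 11 without TAC mouse 9, 16 without sham mouse 1 and 29 without TAC mouse 10.

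Of 84 cytosolic ribosomal protein genes, 1 rose and 1 fell with a median of 0.20, and these are paralogs of each other. Rpl3, present in all tissues, was at 20.9, 13.7 and 15.2 RPKM in sham and 41.6, 35.2 and 55.8 RPKM in TAC hearts (log2 change 1.36, SE 0.28, adjusted p = 0.00740). Rpl3l, its striated muscle counterpart, was at 156, 131 and 139 RPKM in sham and 58.8, 75.9 and 33.3 RPKM in TAC hearts (log2 change -1.40, SE 0.27, adjusted p = 0.00525). In TAC mouse 10 Rpl3 lay above Rpl3l, and in each of the other WT hearts it lay below. Both calls held in all 13 alternatives. Rplp0, a stalk protein and the most abundant of these reported here, had a log2 change of 0.17 (adjusted p = 0.632).

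Translation and protein folding genes were compared next. Of 66 initiation and elongation factors 7 were higher (10.6% against 6.96% of all genes) and 0 lower (1 lower at an unadjusted p under 0.05, 0 in limma-voom), and Eif1a was at 1.20, 1.53 and 1.59 RPKM in sham and 6.06, 6.70 and 4.90 RPKM in TAC hearts (log2 change 1.49, SE 0.15, adjusted p = 5.70e-05). The count of 7 was 3 without TAC mouse 7 and 4 without any 1 of the sham mice. Of 35 endoplasmic reticulum chaperones and unfolded protein response genes 7 were higher and 1, Herpud1, lower. Sec61a1, of the translocation channel, rose by 0.82, Manf, a secreted protein of the reticulum, by 1.045 (adjusted p up to 0.0895) and Xbp1 by 0.76 (up to 0.154). The count of 7 was 1 without sham mouse 2 or TAC mouse 7, 2 without sham mouse 3 and 10 without TAC mouse 9. Of 57 heat shock proteins and cochaperones 6 were higher (10.5%) and 1 lower. The count of 6 was 3 without TAC mouse 7. The shares of translation factors and heat shock genes are near that of all genes. Of the endoplasmic reticulum list 20% were higher. Bag2 rose by 0.92 and Cct6a, a chaperonin subunit, by 0.74, and Fkbp4, a cochaperone of steroid receptors, fell from 147, 96.9 and 98.1 RPKM to 46.4, 35.6 and 49.8 RPKM (log2 change -1.34, SE 0.23, adjusted p = 0.00283).

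Genes of amino acid supply moved in both directions. Of 27 ATF4 targets and amino acid supply genes 8 were higher and 3 lower. Slc38a2, a transporter of small neutral amino acids, was at 18.1, 23.4 and 20.9 RPKM in sham and 64.9, 87.5 and 49.4 RPKM in TAC hearts (log2 change 1.61, SE 0.27, adjusted p = 0.00268). Gpt2, the mitochondrial alanine transaminase, was at 14.4, 19.9 and 17.8 RPKM in sham and 4.51, 4.17 and 6.28 RPKM in TAC hearts (log2 change -1.62, SE 0.23, adjusted p = 0.000745). Chac1, which degrades glutathione, fell by 1.39 (adjusted p up to 0.0785), while these transporters rose. The 8 and 3 were 4 and 1 without sham mouse 2 or without TAC mouse 7. Over all 182 solute carriers 26 were higher and 19 lower. Slc6a6, the taurine transporter, rose by 1.31 on the log2 scale (adjusted p = 0.00771), and Slc25a11, a mitochondrial carrier of oxoglutarate and malate, fell by 0.80 (0.0297, up to 0.111). The 26 and 19 were 15 and 8 without sham mouse 2, 12 and 10 without sham mouse 3, 14 and 6 without TAC mouse 7, 21 and 9 without sham mouse 1, and 22 and 7 without TAC mouse 9.

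Stress and cell fate lists were mixed. Of 35 Nrf2 targets and metallothioneins 7 were higher and 1 lower. Hmox1, which degrades heme, was at 2.90, 2.54 and 2.57 RPKM in sham and 8.37, 8.41 and 12.8 RPKM in TAC hearts (log2 change 1.54, SE 0.20, adjusted p = 0.000429), and Txnrd1, a thioredoxin reductase, rose by 0.95. The count of 7 was 3 without sham mouse 2 or 3 or TAC mouse 7, and 4 without sham mouse 1 or TAC mouse 9 and after median-ratio scaling. Of 25 p53 targets 2 were higher and 1 lower (8% and 4%, near the 6.96% and 4.60% of all genes). Gadd45g was at 7.22, 6.02 and 8.20 RPKM in sham and 35.8, 52.3 and 24.1 RPKM in TAC hearts (log2 change 2.18, SE 0.32, adjusted p = 0.00110). Of 25 genes of the Bcl-2 family and cell death 2 were higher and 0 lower (8 higher and 1 lower at an unadjusted p under 0.05, 2 and 0 in limma-voom). Ripk3, a kinase of necroptosis, rose by 0.92 on the log2 scale (adjusted p = 0.00867). Among 17 S100 proteins and annexins 5 were higher and 0 lower (1 lower at an unadjusted p under 0.05, 0 in limma-voom), of which S100a9 (log2 change 1.57, adjusted p up to 0.0514) and S100a4 (1.47) were under 1 RPKM in every sham heart. The others included S100a11 (1.09) and Anxa7 (0.95). Without sham mouse 2 or 3 the 5 were 4.

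Few members were called in the remaining lists. Of 46 proteasome genes 1 was higher and 0 lower (4 and 1 at an unadjusted p under 0.05, 1 and 0 in limma-voom). Of 43 autophagy and lysosome genes 0 were called in either direction in limma and in limma-voom, with 3 higher and 4 lower at an unadjusted p under 0.05. Of 19 cell cycle genes 0 were called, with 2 higher and 0 lower at an unadjusted p under 0.05 and 0 in limma-voom, though 4 were higher without TAC mouse 9. Of 99 genes of the mitochondrial ribosome and import 1 was higher and 1 lower (1 and 15 at an unadjusted p under 0.05, 1 and 1 in limma-voom). Their median log2 change was -0.28, and Mrpl39 of the large mitochondrial subunit fell by 1.49 (adjusted p = 0.00224). After either scaling 7 of the 99 were lower, and 6 without TAC mouse 10. Of 189 zinc finger genes named Zfp 5 were higher and 0 lower (15 and 5 at an unadjusted p under 0.05, 5 and 0 in limma-voom), and the 5 were 3 without sham mouse 1, sham mouse 2, TAC mouse 7 or TAC mouse 9. Zfp697 rose by 1.96 (adjusted p = 0.00429). Of 22 clock genes 2 were lower and 0 higher (8 lower and 2 higher at an unadjusted p under 0.05, 2 and 1 in limma-voom). The 2 were 5 without TAC mouse 10 or after median-ratio scaling, and 4 after quantile normalization. Ciart fell by 1.30 and Hlf by 1.33, and the time of day at collection is not given in the sources used here.

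Of 54 splicing factors of the SR and hnRNP families 5 were higher and 1 lower, and the 5 were 1 without sham mouse 2, sham mouse 3 or TAC mouse 7 and 2 without sham mouse 1 or TAC mouse 9. Of 27 genes of mRNA decay and antiproliferative function 3 were higher and 1 lower, of 18 ERK phosphatases and Sprouty genes 3 were higher and 1 lower, and of 25 genes of sterol and fatty acid synthesis 2 were higher and 1 lower. Of 23 cytosolic aminoacyl-tRNA synthetases 1 was higher and 0 lower (4 and 0 at an unadjusted p under 0.05, 1 and 0 in limma-voom). Counts of 1 to 3 genes in a list were sensitive to single mice, and leaving out a mouse took them to between 0 and 5 for genes that rose and between 0 and 6 for genes that fell.

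Among long non-coding RNAs the called genes were mostly lower. Of 392 tested, 55 were lower and 15 higher (14.03% and 3.83%), by the biotypes of GENCODE M21, against 451 lower and 760 higher of 10624 protein-coding genes (4.25% and 7.15%). Their median log2 change was -0.17 against 0.04 for coding genes. The lower calls outnumbered the higher ones in each of the 13 alternatives, from 22 lower and 4 higher at a minimum of 5 RPKM, where fewer were tested, to 80 and 12 after quantile normalization. Without sham mouse 1, 2 or 3 in turn, 30, 26 and 34 were lower and 12, 9 and 8 higher. Without TAC mouse 7, 23 were lower and 9 higher, and without TAC mouse 9, 34 and 9. Chaer1, a long non-coding RNA known from cardiac hypertrophy, was at 5.26, 5.65 and 3.96 RPKM in sham and 0.538, 0.259 and 1.18 RPKM in TAC hearts (log2 change -1.87, SE 0.21, adjusted p = 0.000187). AI506816 was at 3.55, 3.94 and 3.51 RPKM in sham and 18.5, 11.9 and 15.2 RPKM in TAC hearts (log2 change 1.77, SE 0.21, adjusted p = 0.000280). The 15 include Cct6a, named above as a chaperonin subunit, which this annotation release lists as a processed transcript. Gm30735 rose by 2.11 on the log2 scale (adjusted p up to 0.0704).

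Many of these RNAs lie opposite a gene on the other strand. This held for 29 of the 55 that fell and 3 of the 15 that rose, and the opposite gene was called the same way for 7 and 3 of them. Gm13054, which overlaps Nppa on the other strand (chr4:148001091-148004014, minus strand), rose by 1.56 with Nppa. Gm45670, opposite Dhx32, fell by 1.94 (adjusted p = 0.0202, up to 0.0759) while Dhx32 rose by 0.84, and 4930481A15Rik, opposite Drap1, fell by 1.76 while Drap1 had a log2 change of -0.11 (adjusted p = 0.824). Gm31251, which lies opposite the slow myosin gene Myh7 and was singled out after its values were seen, was at 13.9, 16.3 and 19.5 RPKM in sham and 6.29, 3.17 and 10.9 RPKM in TAC hearts (log2 change -1.29, SE 0.31, adjusted p = 0.0170). Myh7 itself rose by 1.90 (adjusted p = 0.0143), and alternatives are not given for Gm31251, Myh7 and Dhx32. The libraries kept strand, but whether the counting used it is not given in the sources used here, so where a pair moved the same way its members cannot be told apart.

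Markers of the cell types that a heart sample can hold were compared in the same hearts. Of 10 macrophage and monocyte markers tested 4 were higher and 0 lower (5 higher and 0 lower at an unadjusted p under 0.05, 4 and 0 in limma-voom), and 1 of the 4, Fcgr1, was under 1 RPKM in every sham heart. Their summed level was 126 to 188 RPKM in sham and 202 to 319 RPKM in TAC hearts, and Cd68 was at 7.40, 6.36 and 4.98 RPKM in sham and 16.6, 11.7 and 20.2 RPKM in TAC hearts (log2 change 1.22, adjusted p = 0.00601). Neutrophil markers summed to 0.751 to 1.72 RPKM in sham and 4.62 to 11.7 RPKM in TAC hearts. The 4 of them that were tested were each under 0.5 RPKM in every sham heart and entered through hearts in which they are higher, so no count of calls is given for them, while Ly6g, Camp, Ngp, Cxcr2 and Retnlg are not in the table used. The part of these cells in the chemokine, protease and S100 results was not tested. Of 10 endothelial markers 0 were called in limma and in limma-voom, with 0 at an unadjusted p under 0.05, and of 10 fibroblast markers Gsn was called lower and 0 were called higher in limma and in limma-voom, with 3 higher and 1 lower at an unadjusted p under 0.05 and a median log2 change of 0.28. Of 10 pericyte and smooth muscle markers 2 were higher, Cspg4 (log2 change 0.90, adjusted p = 0.0269) and Cnn1 (1.16, 0.00905). Of the same 10, 1 was lower, Abcc9 (-0.83, 0.0472, close to the threshold). Their summed level was 310.2 to 329 RPKM in sham and 337 to 412 RPKM in TAC hearts, and their part in the actin and matrix results was not tested. Erythroid markers summed to 146 to 171 RPKM in sham and 74.9 to 114 RPKM in TAC hearts. Of the 5 tested 0 were called in limma and in limma-voom, with 2 lower and 0 higher at an unadjusted p under 0.05. The listed markers of T, B and NK cells and of lung are not in the table used. Of the 12 ventricular cardiomyocyte markers 3 were lower, namely Myh6, Mb and Ckm, and 0 higher, with 6 lower and 0 higher at an unadjusted p under 0.05. The median log2 change of the 12 was -0.59. The summed level of the 12 was 18980 to 25550 RPKM in sham and 15620 to 25160 RPKM in TAC hearts. Actc1, the largest part of this sum, had means of 9724 RPKM in sham and 13760 RPKM in TAC hearts.

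**Figure D4:**
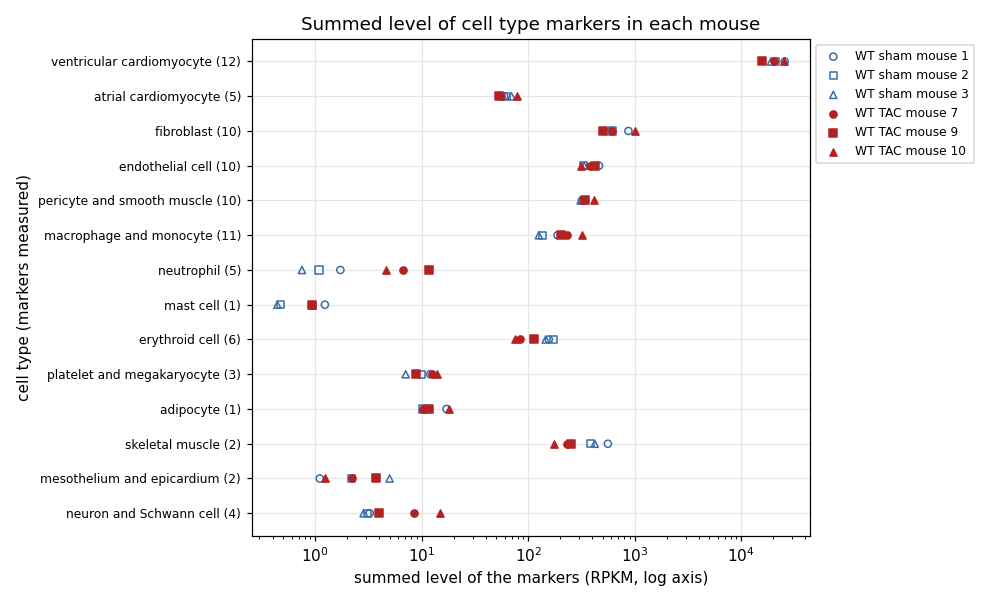
Summed level in RPKM (log axis) of the measured markers of each cell type, whose number is in parentheses, in each of the 6 WT hearts. Open blue symbols are sham mice and filled red symbols TAC mice. Neutrophil markers are separate between the groups (up to 1.72 RPKM in sham and from 4.62 RPKM in TAC hearts), while the sums of endothelial, fibroblast and ventricular cardiomyocyte markers overlap. Abundant markers such as Actc1 and Gsn weigh most in a sum, and single markers can move apart from it.

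The 3 TAC hearts differed in which parts of the response they showed, here given as the median of a list relative to the sham mean on the log2 scale. Immediate early genes were at 0.83, 1.37 and 0.05 in TAC mice 7, 9 and 10, and the sham hearts lay between -0.04 and 0.03. Collagens were at 1.32, 0.19 and 1.27, with sham mouse 1 at 0.42 and the other sham hearts at -0.23 and -0.22. Collagen crosslinking genes were at 0.71, 0.07 and 0.67, and cell cycle genes at 0.16, -0.26 and 0.61. In these medians mouse 9 had the highest immediate early genes and the lowest collagen and crosslinking genes, and mouse 10 the lowest immediate early genes. The matrix proteases and their inhibitors were at 0.50, 0.63 and 0.74, with mouse 7 the lowest. Glucocorticoid-responsive genes were at -0.65, 0.53 and -0.62 in the TAC hearts and at -0.35, 0.22 and 0.19 in the sham hearts. Of their 24 members 4 were higher and 3 lower, and the 3 were 0 without sham mouse 2, sham mouse 3 or TAC mouse 7, 1 without TAC mouse 10 and 5 without TAC mouse 9. In contrast, Z-disc genes were at 0.92, 0.89 and 0.69, actin and adhesion genes at 0.77, 0.55 and 0.75, nucleolar genes at 0.52, 0.52 and 0.31, and oxidative phosphorylation at -0.61, -0.51 and -0.53. In these 4 lists every TAC heart lay apart from every sham heart. This also held for immediate early genes, matrix proteases and other lists, so it is not particular to these 4.

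**Figure D5:**
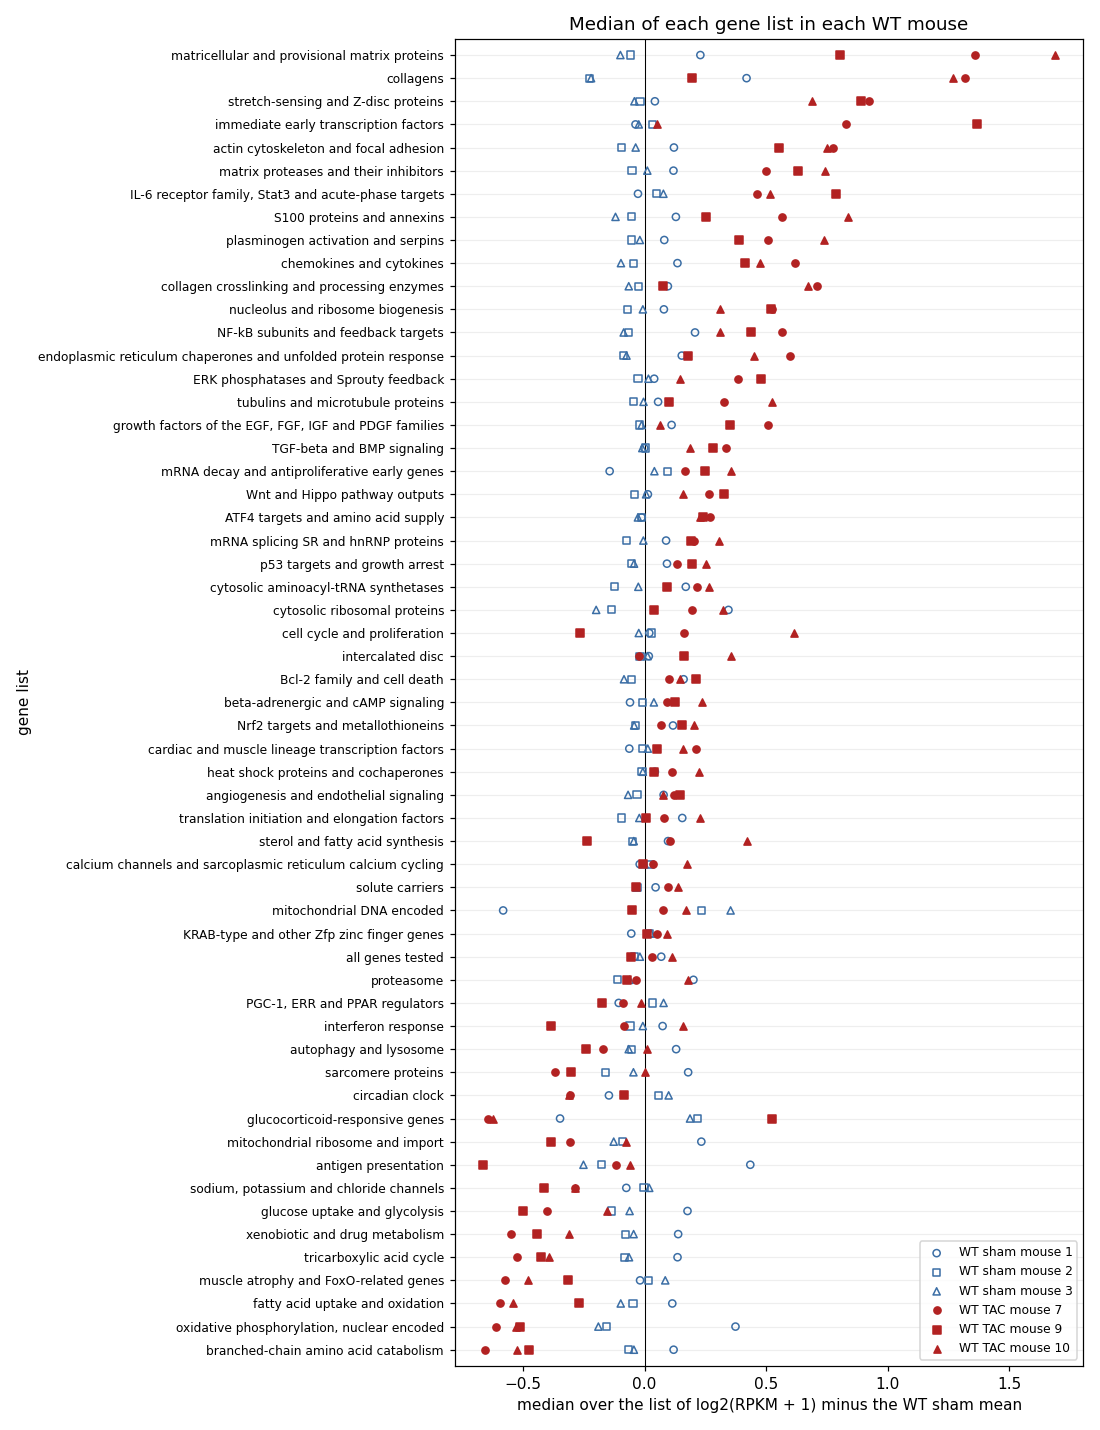
Median over each gene list of log2(RPKM + 1) minus the mean of the sham hearts (horizontal axis) in each WT heart, ordered by the mean of the TAC hearts. Open blue symbols are sham mice and filled red symbols TAC mice, and the median of all genes tested lies between -0.06 and 0.11. The TAC hearts are spread over 1.32 for immediate early genes and over 0.10 for oxidative phosphorylation.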

How the data were processed

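RNA of 12 mouse hearts was measured by poly(A)-selected, strand-specific RNA sequencing. After trimming (Trimmomatic 0.39), alignment to GRCm38 (HISAT2 2.2.1) and counting per Ensembl gene (HTSeq 0.6.1), the authors deposited RPKM values of 13552 genes. The step from counts to RPKM, the filter on genes and the strand setting of the counting are not given in the sources used here. The unit was read from the values, which times exon length (GENCODE M21) sum to nearly the same total in each mouse. Of the low values checked, 97.9% to 98.2% in each mouse were whole multiples of 1 read (tolerance 0.05), from which depth was recovered. edgeR, which the authors ran on counts, was not applied to these normalized values.

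From the deposited values log2(RPKM + 1) was tested with limma 3.58.1 in R 4.3.3 (trend) over all 12 mice in 4 groups, for WT TAC against WT sham, in genes that reached 1 RPKM in 3 mice or more. Named are the 15 largest increases and 15 largest decreases without overlap between groups (predicted genes passed over), the 10 largest rises and 10 largest falls in mean RPKM among genes past the threshold, at most 5 called and 2 most abundant members of each list, cell type markers, and 3 long non-coding RNAs in each direction. The members and gene lists were chosen with earlier results of these data known. Values of some genes the rule selects are not reported here. Alternatives were a pseudocount of 0.1, no filter, a minimum of 5 RPKM, quantile normalization, median-ratio scaling, limma-voom on recovered reads, a fit of the 6 WT mice, and leaving out each WT mouse. The fit was tested on simulated data. Promoter windows are from RefSeq, GRCm38.p6. Tables were handled in Python 3.11.15 with pandas 2.3.3 and plots drawn with matplotlib 3.10.9.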

Additional observations from a re-analysis of the deposited data

How the results depend on the processing

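No paired analysis was possible because WT sham mice 1, 2 and 3 and WT TAC mice 7, 9 and 10 share no number. With fewer genes tested at a minimum of 5 RPKM, 451 genes were higher and 343 lower, and quantile normalization gave 809 lower. Leaving out 1 mouse gave 391 to 815 higher and 203 to 710 lower. The median log2 change of 7 of the 56 lists (between -0.10 and 0.18 as reported) changed sign in at least 1 alternative, and the cause was not tested. Leaving out 1 mouse took the median of interferon genes from -0.24 to 0.0395, of the proteasome from -0.0568 to 0.109, of mitochondrial DNA transcripts from -0.22 to 0.296, of the Bcl-2 family from -0.0193 to 0.264 and of sterol synthesis from -0.0878 to 0.309. Quantile normalization put the proteasome at -0.000966 and Zfp genes at -0.00737, median-ratio scaling the Bcl-2 family at -0.0148, and a minimum of 5 RPKM the solute carriers at -0.0164. Of the 226 named genes past the threshold, 102 missed it in a fit without 1 mouse and 45 in another setting. Values in 3 mice a group limit the precision of each change.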
